A study of Homo sapiens with 8 samples.

Results

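Nonmuscle myosin II and the kinases that act on it are described here as 10 genes of 34792 summed from the RNA-seq files: the heavy chains MYH9, MYH10 and MYH14, the essential light chains MYL6 and MYL6B, the regulatory light chains MYL12A and MYL12B, and the kinases MYLK, ROCK1 and ROCK2. They were chosen by function, with the difference in MYH14 between doxycycline and control cultures already known, so their values in that comparison are given as a description with no p-value, and the calls of the fit over all genes are counted for them without being read as evidence. The RNA came from A673, an Ewing sarcoma cell line that carries the EWSR1-FLI1 fusion, engineered as A673/TR/shFEZF1. Every culture, the controls included, expressed the tetracycline repressor (TR) and carried an shRNA against FEZF1, a zinc finger transcription factor, that doxycycline switches on. The 4 controls were untreated and the 4 doxycycline cultures received 1 µg/mL for 72 h, and both groups held 1 culture of the polyclonal population and 1 each of clones 3, 5 and 6. Clones in this system were picked for strong loss of FEZF1 protein, and the parent A673/TR was itself 1 clone. Doxycycline cultures without the shRNA were not analysed here, so an action of doxycycline and an action of the shRNA cannot be told apart. The p-values below are judged against the spread that origin (polyclonal population or clone) and treatment leave over in the fit. All cultures were of 1 cell line.

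Nonmuscle myosin II is the motor that pulls on actin filaments in cells other than muscle fibres. Each molecule holds a pair of heavy chains, which set the isoform (IIA from MYH9, IIB from MYH10, IIC from MYH14), a pair of essential light chains, which stabilise the lever arm, and a pair of regulatory light chains, whose phosphorylation unfolds the molecule and lets it form filaments. MYLK encodes the calcium and calmodulin dependent light chain kinase, while ROCK1 and ROCK2 are activated by RhoA, phosphorylate the regulatory light chain and inhibit the phosphatase that reverses it. The motor drives cytokinesis, adhesion, cortical tension and cell migration.

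The 3 heavy chain genes lie on different chromosomes of GRCh38: MYH9 on chromosome 22 (36281280 to 36387967), MYH10 on chromosome 17 (8474212 to 8630725) and MYH14 on chromosome 19 (50203622 to 50310540). The 250 bases before each annotated start (RefSeq, GRCh38.p14) are shown because the 3 genes make the same kind of subunit at very different RNA levels. Capitals mark CCAAT boxes (CCAAT, or ATTGG on the other strand) and GC boxes (GGGCGG, or CCGCCC on the other strand), and overlapping matches were counted separately.
MYH9 (chr22:36387968-36388217, minus strand): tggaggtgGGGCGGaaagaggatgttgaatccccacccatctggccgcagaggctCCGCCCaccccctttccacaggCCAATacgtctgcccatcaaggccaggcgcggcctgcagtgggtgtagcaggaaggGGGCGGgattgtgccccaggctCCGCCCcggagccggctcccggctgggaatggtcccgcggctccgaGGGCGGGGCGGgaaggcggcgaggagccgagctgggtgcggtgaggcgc
MYH10 (chr17:8630726-8630975, minus strand): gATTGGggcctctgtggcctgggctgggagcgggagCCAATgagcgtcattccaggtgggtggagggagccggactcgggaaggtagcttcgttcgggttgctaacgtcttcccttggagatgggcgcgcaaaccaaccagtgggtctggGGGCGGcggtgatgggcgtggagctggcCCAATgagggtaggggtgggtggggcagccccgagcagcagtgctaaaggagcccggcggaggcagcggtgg
MYH14 (chr19:50203372-50203621, plus strand): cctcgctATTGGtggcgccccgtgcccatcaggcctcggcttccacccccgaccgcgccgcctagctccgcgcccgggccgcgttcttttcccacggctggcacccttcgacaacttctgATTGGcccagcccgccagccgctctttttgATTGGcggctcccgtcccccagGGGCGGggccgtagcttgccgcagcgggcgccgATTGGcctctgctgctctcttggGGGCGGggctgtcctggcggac
MYH14, the heavy chain with the least RNA, held 4 CCAAT and 2 GC boxes, MYH10 held 3 and 1, and MYH9 held 1 and 6. Their G and C content was 71.6% (MYH14), 67.2% (MYH10) and 71.6% (MYH9), against a median of 58.0% over 27305 promoters of the same length. A CCAAT box was found in 5 of 9 members and in 33.0% of all promoters, and a GC box in 8 of 9 members and in 42.3% of all. TATAAA was found in 1 of 9 members (11.1% of all), a CArG box in 1 of 9 (1.1% of all), and GGAA repeated in tandem in 0 of 9 (3.0% of all), each read on both strands. These counts describe letters in a window and were not tied to any measured binding. MYLK was left out of the count because its entry in the promoter table lies 263784 bases inside the gene.

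Between 26719886 and 42422421 reads per library were assigned to transcripts, and 89.9% to 91.1% of them were matched to a gene symbol. The deposited table of the clone 5 control lists its transcripts in another order than the other 7, and its larger values are written to more digits. Whether it was quantified in another way was not tested. The clone 5 ratios of MYH14 and MYLK given below have this control as their denominator. The median of transcript length minus effective length was 163 bases in it, within the 159 to 167 of the others. FEZF1, the target of the shRNA, was at 96.4, 70.5, 107 and 74.4 CPM in the controls of the polyclonal population and clones 3, 5 and 6, and at 60.6, 43.0, 60.8 and 36.4 CPM in the doxycycline cultures in the same order, where CPM are read counts scaled to a common library size after TMM. It was lower in 4 of 4 pairs (log2 fold change -0.81, standard error 0.07), and the groups did not overlap. All 6 Ewing sarcoma markers, NKX2-2, NR0B1 and CD99 among them, were at 14.5 TPM (a read count scaled to transcript length and library size) or more in every library. Of 5 smooth muscle markers 3 were under 1 TPM in every library, and the highest value of any was 3.07 TPM. They did not include ACTA2 (180 to 832 TPM) or TAGLN (5.40 to 55.0 TPM), which smooth muscle also expresses. All 4 skeletal muscle markers were under 1 TPM, and of 6 leukocyte, epithelial and endothelial markers 5 were under 1 TPM, the exception being EPCAM at up to 3.39 TPM.

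In the controls the light chains were the most abundant members, the heavy chains MYH9 and MYH10 followed, and MYLK and MYH14 were the least abundant. On the TPM scale, which corrects for transcript length and so allows levels of different genes to be compared, MYL6 had a median of 2234, MYL12B 780, MYL12A 523 and MYL6B 233 in the 4 controls. MYH9 had a median of 141 TPM, MYH10 82.1, ROCK2 24.5 and ROCK1 19.5. MYLK had a median of 1.81 TPM (0.968 to 4.65) and MYH14 of 0.222 TPM (0.077 to 0.442). The ranges of neighbours in this order overlapped for MYH9 and MYH10 alone, where MYH9 was above MYH10 in 3 of 4 controls.

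MYH14, the heavy chain of myosin IIC, had the largest fold difference between doxycycline and control cultures among the 10 members. Its level was 1.70 CPM in the polyclonal control, 0.315 in clone 3, 0.980 in clone 5 and 0.885 in clone 6. With doxycycline it was 5.86 CPM in the polyclonal population, 2.33 in clone 3, 8.17 in clone 5 and 4.46 in clone 6. Every doxycycline culture was above every control, and how many of all genes tested had groups apart in this way was not counted. Over all genes tested 3.73% were called higher with doxycycline, and nothing is read from MYH14 against that share, since it was chosen with this comparison in view. The controls averaged 0.969 ± 0.567 CPM and the doxycycline cultures 5.20 ± 2.45 CPM (SD, n = 4 each), and the fitted log2 fold change was 2.46 (standard error 0.25). Within pairs the doxycycline culture was 3.46-fold (polyclonal), 7.38-fold (clone 3), 8.33-fold (clone 5) and 5.04-fold (clone 6) higher, so no origin went the other way, and without the clone 5 cultures the log2 fold change was 2.24. In bulk RNA a larger share of expressing cells and more RNA per cell cannot be told apart. The values rest on few reads in the controls: 67.0 estimated reads in the polyclonal population, 10.0 in clone 3, 27.1 in clone 5 and 22.0 in clone 6, against 191, 80, 246 and 106 with doxycycline. The exact 95% Poisson interval of the 10.0 reads in the clone 3 control ran from 4.80 to 18.4, and that of the 80 reads in its doxycycline culture from 63.4 to 99.6. These intervals cover counting error only.

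MYH9 and MYH10, the heavy chains of myosin IIA and IIB, had no difference of that size. MYH9 was at 713, 514, 776 and 284 CPM in the controls (polyclonal population, clones 3, 5 and 6) and at 704, 484, 757 and 249.4 CPM with doxycycline. It was lower in 4 of 4 pairs by a small amount (log2 fold change -0.08, standard error 0.05), while its level ran over a wide range from origin to origin. MYH10 was at 399, 398, 363 and 376 CPM in the controls and at 408, 417, 400 and 328 CPM with doxycycline, higher in 3 pairs and lower in clone 6 (log2 fold change 0.01, standard error 0.06), and the sign of the fitted value turned under 5 of 10 alternatives, with DESeq2 and its size factors among them. The groups of both genes overlapped.

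**Figure D1:**
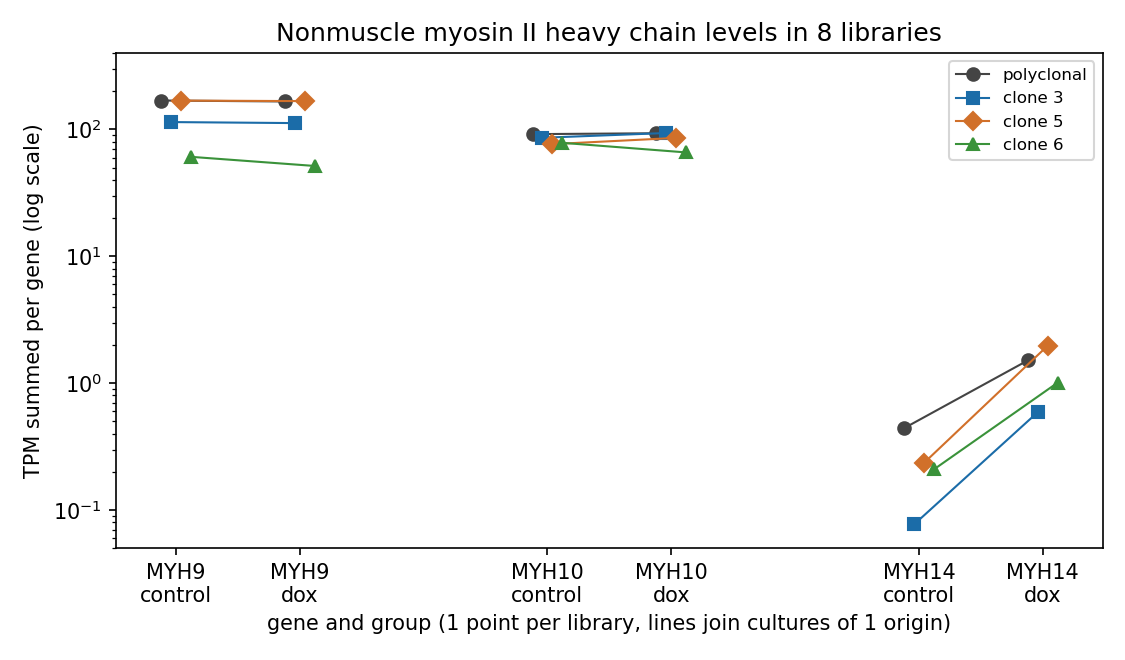
TPM of MYH9, MYH10 and MYH14 (vertical axis, log scale) in the 4 controls and the 4 doxycycline (dox) cultures, with 1 point per library and a line joining the cultures of the same origin. The 4 lines of MYH14 run from between 0.077 and 0.442 TPM up to between 0.592 and 1.98 TPM, while the points of MYH9 and MYH10 lie between 51.5 and 169 TPM in both groups.

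Set against the other heavy chains, MYH14 was a minor species in all 8 libraries. Its share of the summed heavy chain TPM was 0.169%, 0.0385%, 0.0957% and 0.1496% in the controls (polyclonal population, clones 3, 5 and 6) and 0.581%, 0.287%, 0.776% and 0.854% with doxycycline. The mean share was 0.113% ± 0.0587 in controls and 0.624% ± 0.253 with doxycycline (SD, n = 4 each). In the clone 3 control the MYH9 TPM was 1482.5 times that of MYH14, and in the clone 6 doxycycline culture, at the other end, 51.0 times. The log2 ratio of MYH14 to MYH9 was higher with doxycycline by 2.59 ± 0.58 (SD over 4 pairs, 1.80 to 3.09), and that of MYH14 to MYH10 by 2.502 ± 0.53 (1.75 to 2.91).

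The balance between MYH9 and MYH10 differed from origin to origin and little within a pair. The ratio of MYH9 to MYH10 TPM was 1.84 in the polyclonal population, 1.33 in clone 3, 2.203 in clone 5 and 0.776 in clone 6 without doxycycline, and 1.78, 1.197, 1.95 and 0.782 with it. By matched reads clone 6 was the 1 origin in which MYH10 exceeded MYH9, in both of its cultures. Of the reads that the authors' mean implies, 83.2% were matched for MYH10 and 99.4% for MYH9, so these ratios understate MYH10. The order in clone 3 with doxycycline, at 1.197, is therefore unsure. The same limit holds for the heavy chain sums, and for shares and ratios that use them. The summed heavy chain TPM was also lowest in clone 6, at 139 and 118 TPM against 200.2 to 261 in the other 6 libraries.

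Several transcripts were listed for most members. MYH9 reads all went to its 1 matched transcript, and those of MYH10 went mainly to NM_001256095.1 (57.2% to 69.2% of its reads) and NM_005964.4 (30.6% to 42.7%). MYH14 reads went wholly to NM_024729.3 in the 4 controls and in the clone 3 doxycycline culture, wholly to NM_001077186.2 in the polyclonal doxycycline culture, and to both in clones 5 and 6 with doxycycline, where NM_001077186.2 took 57.9% and 65.2%. These MYH14 transcripts differ in length by 8 bases and the split between them is an estimate made by the quantifier, so the sum per gene is used throughout.

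MYLK, the calmodulin-dependent light chain kinase, was the other member with a difference of several fold. It was at 6.99 CPM in the polyclonal control, 13.9 in clone 3, 3.74 in clone 5 and 3.498 in clone 6, and with doxycycline at 12.7, 28.6, 43.1 and 16.2 CPM in the same order. Each doxycycline culture was above its own control, but the groups overlapped, since the clone 3 control was above the polyclonal doxycycline culture. The controls averaged 7.02 ± 4.83 CPM and the doxycycline cultures 25.2 ± 13.8 CPM (SD, n = 4 each), and the fitted log2 fold change was 1.84 (standard error 0.41). The pairs were unequal, at 1.82-fold (polyclonal), 2.06-fold (clone 3), 11.5-fold (clone 5) and 4.63-fold (clone 6), and without the clone 5 cultures the log2 fold change was 1.31. The 11.5-fold value has as its denominator the clone 5 control, whose deposited table differs in form from the others. That control, at 3.74 CPM, was close to the clone 6 control, at 3.498 CPM. The clone 5 doxycycline culture, at 43.1 CPM, was the highest of its group. MYLK lies on chromosome 3 of GRCh38 (123610049 to 123884332) and overlaps MYLK-AS1, which was at a mean of 0.811 CPM in controls and 0.661 with doxycycline, and whether strand was used to assign the reads of this overlap is not given in the sources used here. Of the reads that the authors' own mean implies for the gene, 82.5% were matched for MYLK and 83.2% for MYH10, against 98.97% or more for the other 8 members.

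The higher MYLK values lay mainly in its predicted transcripts. Reads assigned to the 5 curated transcripts of 9753 to 10113 bases were at 1.68, 2.49, 2.28 and 1.24 CPM in the controls. With doxycycline they were at 1.55, 1.01, 0 and 0.313 CPM, lower in every pair. These values rest on few estimated reads: 66.2, 79.2, 62.8 and 31.0 in the controls and 50.3, 34.8, 0 and 7.44 with doxycycline. Reads assigned to the 9 predicted transcripts of 2398 to 6163 bases were at 4.92, 11.2, 1.46 and 2.25 CPM in the controls and at 11.2, 27.3, 42.1 and 15.9 CPM with doxycycline, higher in every pair. The 2 curated transcripts of 4772 to 4775 bases were at 0.391, 0.168, 0 and 0 CPM in the controls. With doxycycline they were at 0, 0.273, 1.06 and 0 CPM. The long curated transcripts held 18.0% to 60.9% of MYLK reads in controls and 0% to 12.2% with doxycycline, and these ranges did not overlap. Transcripts of 1 gene share sequence, so this division is estimated, and the 0% in the clone 5 doxycycline culture is an estimated 0 of 1300 reads.

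**Figure D2:**
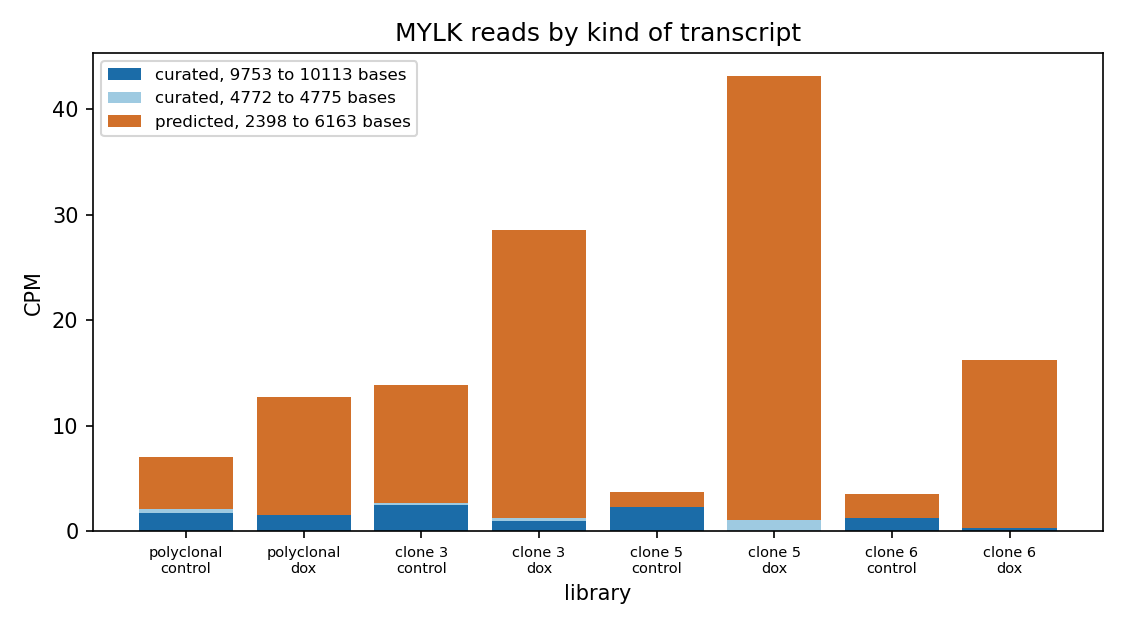
MYLK CPM in each of the 8 libraries (bars), divided by the kind of transcript to which reads were assigned (colours, with their range of lengths). Dark blue, the long curated transcripts, is 2.49 CPM or less in every library, while orange, the predicted transcripts, reaches 42.1 CPM in clone 5 with doxycycline (dox).

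ROCK1 and ROCK2, the other kinases among the members, were more abundant than MYLK and differed by less than 0.25 on the fitted log2 scale. ROCK1 was at 111, 118, 93.8 and 110 CPM in controls and at 93.1, 115, 79.99 and 82.8 CPM with doxycycline. It was lower in 4 of 4 pairs (log2 fold change -0.23, standard error 0.07), with the clone 3 pair almost level. ROCK2 was at 111, 130, 107 and 114 CPM in controls and at 113, 149, 122 and 117 CPM with doxycycline, higher in 4 of 4 pairs (log2 fold change 0.11, standard error 0.06). The groups of both kinases overlapped. On the TPM scale some pairs turned. ROCK2 was lower with doxycycline in the polyclonal population (25.79 to 25.72) and clone 6 (23.3 to 22.6). ROCK1 was higher in clone 3 (20.5 to 20.9). The pseudogene ROCK1P1, which resembles part of ROCK1, was at a mean of 1.11 CPM in controls and 1.51 with doxycycline.

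The light chains had small differences of both signs. MYL6, the main essential light chain, was at 580, 854, 647 and 778 CPM in controls and at 630, 753, 688 and 915 CPM with doxycycline, higher in 3 pairs and lower in clone 3 (log2 fold change 0.07, standard error 0.07). MYL6B, its less abundant paralog, had the same pattern of pairs (log2 fold change 0.14, standard error 0.07). MYL12A, a regulatory light chain, was at 289, 301, 292 and 341 CPM in controls and at 273, 239, 237 and 338 CPM with doxycycline, lower in 4 of 4 pairs (log2 fold change -0.18, standard error 0.07). MYL12B was lower in 3 pairs and higher in clone 6 (log2 fold change -0.11, standard error 0.06). The groups of all 4 light chains overlapped. On the TPM scale MYL6B was higher with doxycycline in clone 3 also (225.5 to 229.2). MYL12B was then lower in clone 6 also (777 to 774). The near-identical genes MYL12A and MYL12B stand side by side on chromosome 18 with 5895 bases between them, and how far reads can be told apart between these paralogs was not tested. MYL6B ends 376 bases before MYL6 on chromosome 12.

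The light chains outnumbered the heavy chains on the TPM scale in every library. The essential light chains summed to 8.58 to 25.8 times the heavy chains and the regulatory light chains to 4.44 to 11.1 times, both highest in the clone 6 doxycycline culture. MYL6B was 7.61% to 10.8% of the essential light chain TPM, and MYL12A was 35.8% to 42.4% of the regulatory light chain TPM. The control and doxycycline ranges of both shares overlapped. Within each pair the MYL6B share was a little higher with doxycycline, from 10.72% to 10.84% (polyclonal) and from 7.61% to 8.36% (clone 3), for example. The MYL12A share was lower with doxycycline in clones 3, 5 and 6. In the polyclonal population it was higher (39.46% to 39.69%).

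**Figure D3:**
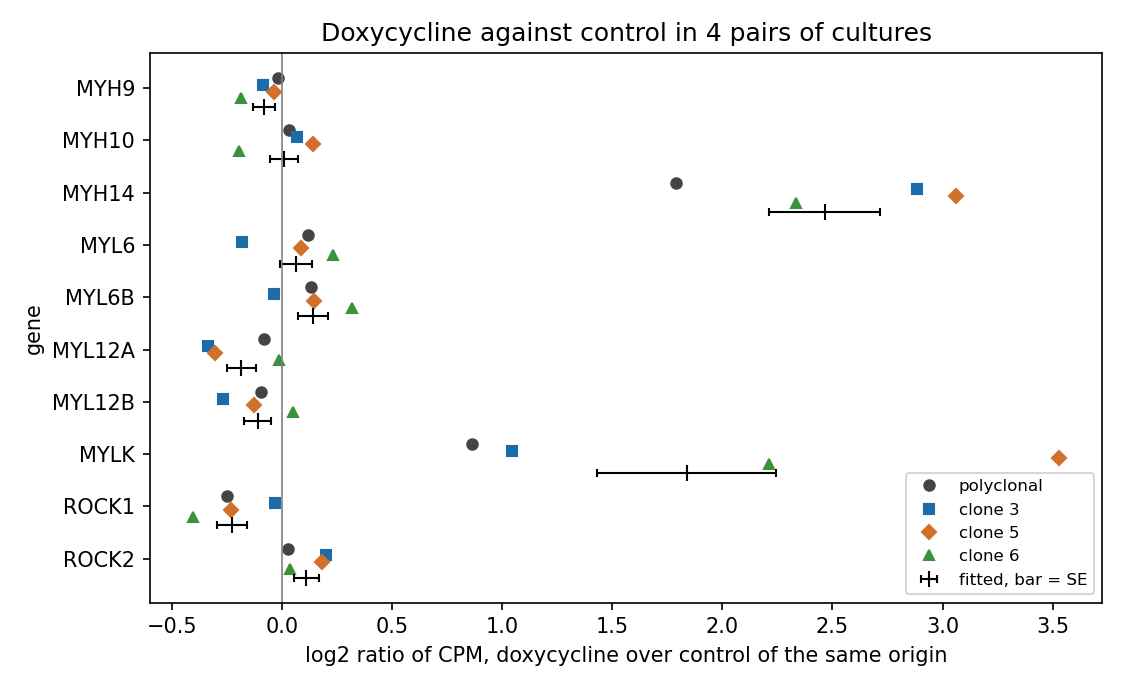
Log2 ratio of CPM, doxycycline over control, for the 10 members (rows) in the 4 pairs of cultures (coloured symbols), with the fitted log2 fold change and its standard error in black. MYH14 and MYLK lie to the right of 0 in every pair, from 0.86 to 3.53, and the fitted values of the other 8 lie between -0.23 and 0.14.

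Over the 15993 genes tested with origin in the model as a block, and at a threshold of 0.05 on the Benjamini-Hochberg adjusted p of edgeR, 3.73% were called higher and 3.91% lower with doxycycline. Of the 10 members, all tested, 2 were called higher (MYH14 and MYLK) and 0 lower, and nothing is read from these counts because the members were chosen with this comparison in view. The median log2 fold change of the members was 0.04, against 0.004 over all genes. Without the replicate block 0 members were called and 1 gene in all, and without clone 3, 5 or 6 MYH14 was called and MYLK was not.

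How the members differed between the 4 origins was not used to choose them and was tested in the same fit. Each origin had 1 culture per group, so its control and doxycycline cultures served as its replicates. Handling shared by these cultures cannot be told apart from a difference between origins. Over all genes 39.4% were called between origins, and 7 of 10 members were. MYH9 had the smallest p-value of the members: the mean of its CPM in clone 5 was 2.88-fold that in clone 6 (adjusted p = 0.000100, edgeR), and it was called whichever origin was left out. MYH14 also differed (adjusted p = 0.0198, edgeR), with both clone 3 cultures lowest in their group, and without clone 3 its adjusted p was 0.251. MYL6B (adjusted p = 0.0182) and MYL12A (0.0449) were highest in clone 6 in both groups, and without clone 6 their adjusted p-values were 0.705 and 0.637, while MYL12A was also not called without clone 5 (0.0731). MYL6 (adjusted p = 0.0202) was lowest in the polyclonal population in both groups and was not called without it (0.102). ROCK1 (adjusted p = 0.0395) and ROCK2 (0.0374) were highest in clone 3 in both groups, and both were called without clone 6 and not without any other origin. For MYH10, MYL12B and MYLK the differences between origins did not pass the threshold (adjusted p = 0.229, 0.1401 and 0.175, edgeR), and MYLK passed it without clone 5 (0.0346).

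**Figure D4:**
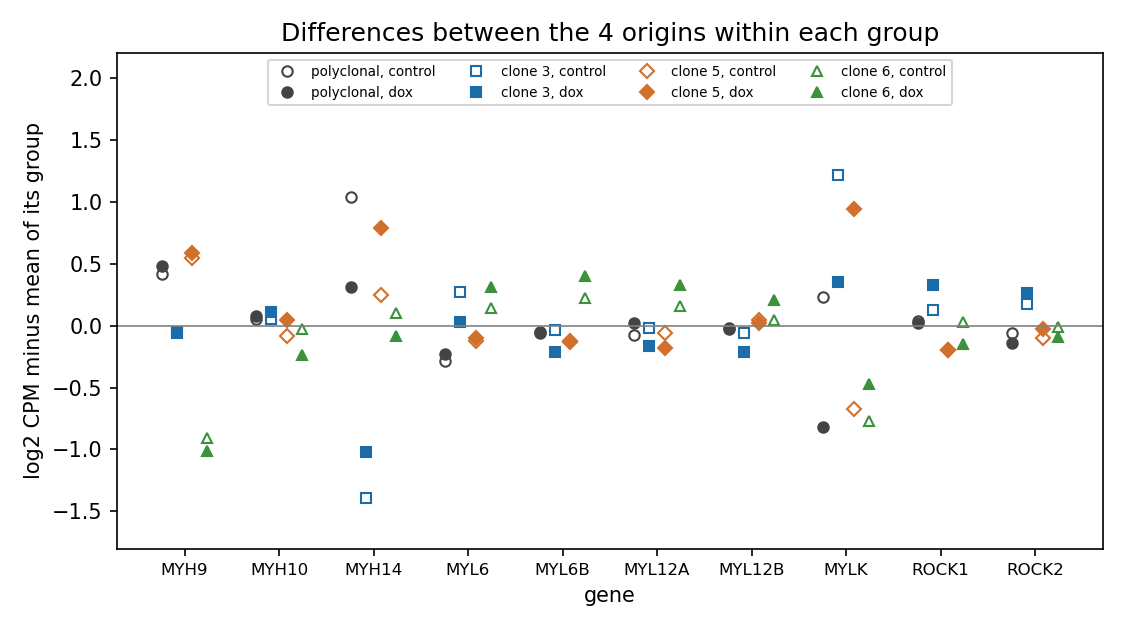
Log2 CPM of each member minus the mean of its group (vertical axis) for the 4 origins, with open symbols for controls and filled symbols for doxycycline (dox) cultures. MYH9 of clone 6 lies below the other origins in both groups, and its highest and lowest origin means differ by 2.88-fold.

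Beyond the members, 110 genes of the contractile system were listed by function in 7 groups, and 82 of them were tested. With doxycycline 4 (4.88%) were called higher and 8 (9.76%) lower by edgeR at the same threshold over all genes, with a median log2 fold change of 0.001 against 0.004 over all genes. Over all genes tested the shares were 3.73% higher and 3.91% lower, and these also stand behind the counts of the groups below. The count over the 7 groups was 0 without the replicate block and 1 without clone 5. Of the tested genes, 14 had under 80% of the reads that the authors' mean implies.

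Among the other light chain kinases and the calmodulins, which serve the same step as MYLK, 1 of 14 was called higher and 3 lower. CALM3 was at 469 ± 29.1 CPM in controls and fell to 301 ± 30.5 (SD over 4; log2 fold change -0.64, edgeR adjusted p = 0.00729), and the most abundant of the group, CALM2, from 411 ± 35.4 to 348 ± 53.9 CPM (-0.25, 0.0476). Both encode calmodulin, the calcium sensor that activates the kinase made from MYLK. CALM3 belongs to a list that the study chose on these libraries, so its call is not independent evidence. Of the death-associated kinases, which can phosphorylate the regulatory light chain, DAPK1 fell (log2 fold change -0.34, edgeR adjusted p = 0.0217) and DAPK2 rose (0.55, 0.0290), the latter with 43.0% of its reads matched. DAPK3 did not pass, with a log2 fold change of 0.25 (edgeR adjusted p = 0.0592) and higher values in 4 of 4 pairs.

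Of the myosin phosphatase and its inhibitors, the enzyme that reverses light chain phosphorylation, 0 of 8 were called at the adjusted threshold. The catalytic subunit PPP1CB was at 214 ± 37.4 and 215 ± 36.01 CPM and the targeting subunit PPP1R12A at 121 ± 9.41 and 123 ± 10.7 CPM (SD, n = 4 each). The inhibitor PPP1R14B was the most abundant of the group (log2 fold change -0.03, standard error 0.07).

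Of the actins and filament partners, on which the motor pulls, 2 of 29 were called higher and 4 lower. TPM3, a tropomyosin (log2 fold change 0.25, edgeR adjusted p = 0.0320), and LIMK1, a kinase of cofilin that ROCK activates (0.27, 0.0465), rose. SEPTIN2 (log2 fold change -0.36, edgeR adjusted p = 0.0103) and SEPTIN9 (-0.32, 0.0444), of the septin filament family, CALD1, the actin-binding protein caldesmon (-0.27, 0.0314), and TAGLN, transgelin (-0.32, 0.0344), fell. ACTB, the most abundant, did not pass (log2 fold change -0.07, edgeR adjusted p = 0.459). These 6 calls were between 0.25 and 0.36 in size, against 2.46 for MYH14 on the same log2 scale.

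Of the other myosins, 1 was called. Of 11 other conventional heavy chains, those of muscle, 3 were tested and 0 called, and the most abundant, MYH3, was at 0.386 to 0.812 TPM. Of 9 other conventional light chains 1 was tested, MYL5, and it was not called (log2 fold change -0.40, edgeR adjusted p = 0.375). Of 24 unconventional myosins 14 were tested: MYO5A, a vesicle motor, fell from 11.3 ± 3.12 to 7.10 ± 2.55 CPM (log2 fold change -0.70, edgeR adjusted p = 0.0305; 54.1% of its reads matched), and 13 were not called, among them the most abundant, MYO10, a filopodial motor (-0.29, 0.0602).

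**Figure D5:**
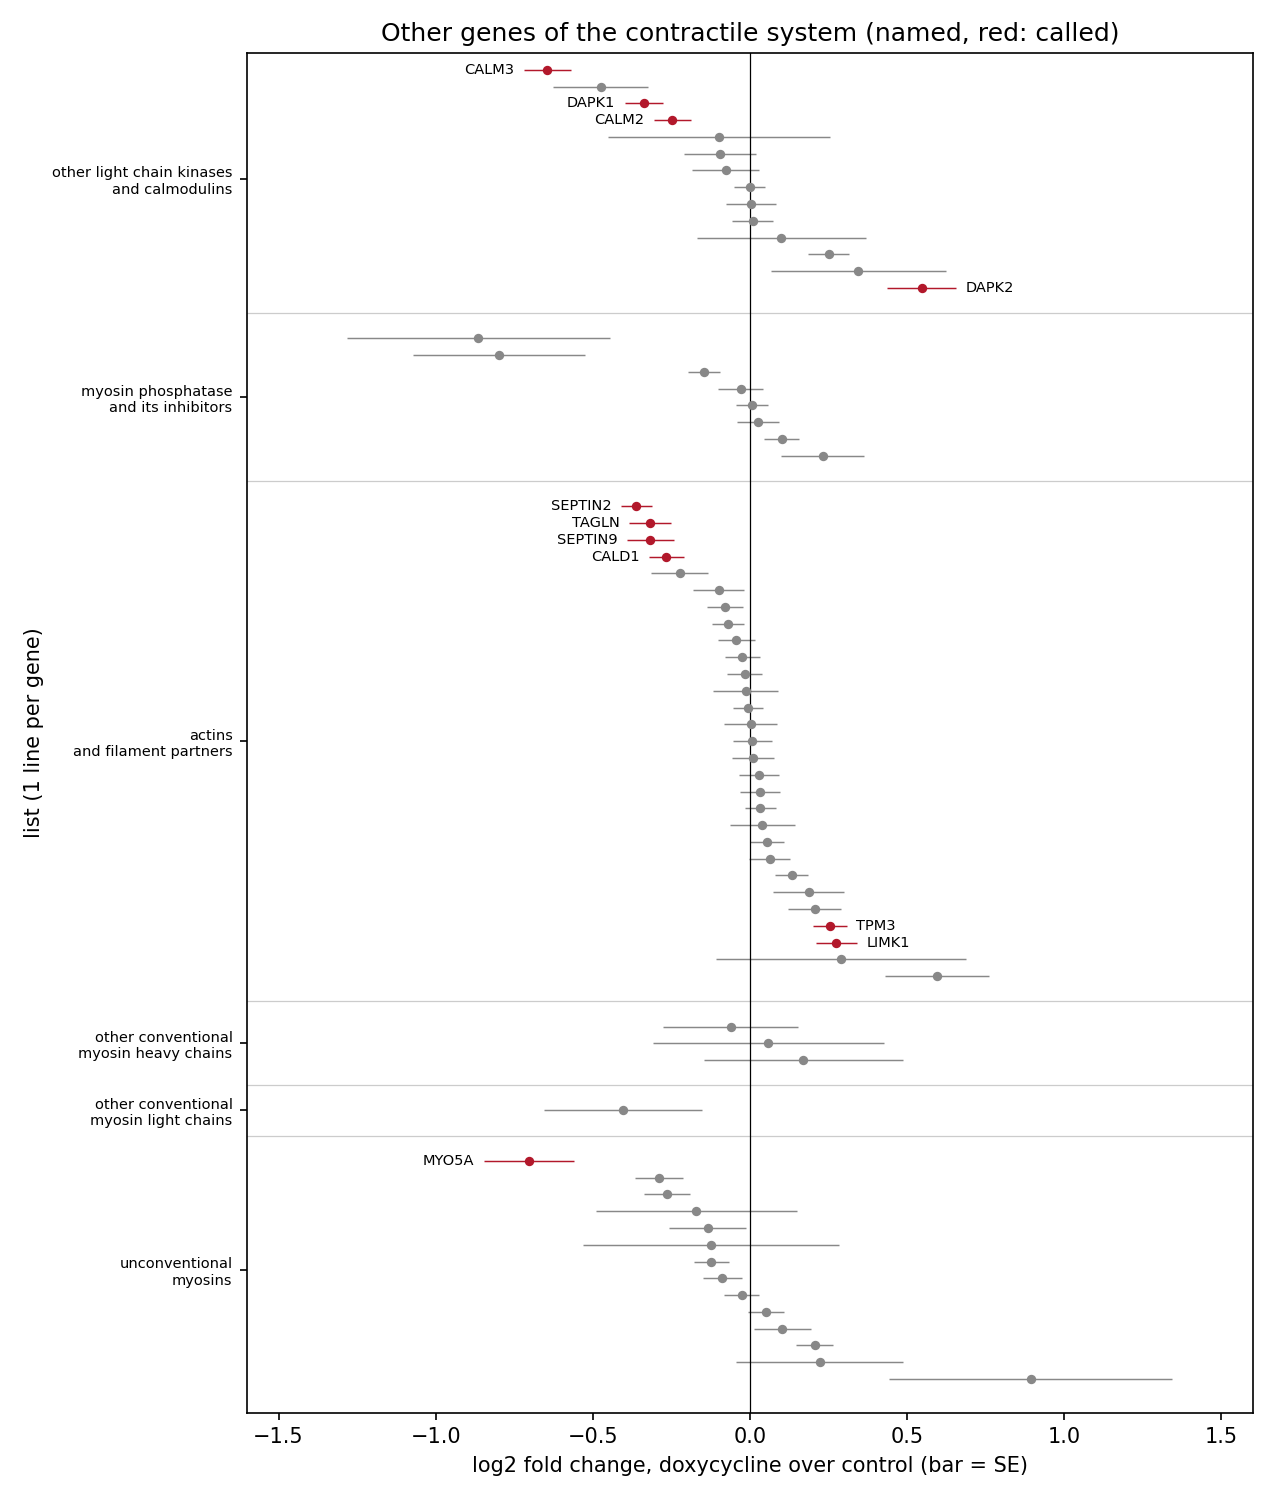
Log2 fold change, doxycycline over control, of 69 tested genes in 6 of the groups (1 line per gene, bars are standard errors), with their 11 called genes named in red. The called genes lie between -0.70 (MYO5A) and 0.55 (DAPK2).

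Over the 8 libraries, the genes whose log2 CPM followed MYH14 most closely were PRKAB2 (Pearson's r = 0.987), EWSAT1 (0.985), RNF182 (0.974), NEDD4L (0.971) and CD79A (0.968). Their log2 fold changes with doxycycline were 0.48, 1.03, 0.61, 0.40 and 0.91, each below the 2.46 of MYH14. The points share libraries, the difference between groups and the origins, so these values are a description.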

How the data were processed

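RNA from 8 cultures was sequenced (stranded poly(A) libraries, paired ends). Reads were quantified by the authors with Salmon against RefSeq transcripts of GRCh38, and the deposited files give estimated counts, TPM and effective lengths of 158867 transcripts per library. They also deposited a DESeq2 table whose mean, an average signal of normalized counts, was used here to see how much of each gene was matched. Its fold changes, standard errors, Wald statistics and p-values were not used. Per the labels, DESeq2 was 2.11.40.6. Whether Salmon used strand is not given in the sources used here.
Of the transcripts, 72.6% were matched to gene symbols (RefSeq, GRCh38.p14), and estimated counts were summed per gene and rounded to whole numbers. No per-sample column was left unused.
After filterByExpr and TMM scaling, edgeR 4.0.16 in R 4.3.3 was fitted (quasi-likelihood F test, Benjamini-Hochberg adjustment at 0.05) with origin as the replicate block and treatment as the contrast; origins were tested in the same fit. The study's methods name no pairing. Cultures of 1 origin come from the same cells, and the deviations from the group means correlated at 0.406 (polyclonal), 0.546 (clone 3), 0.590 (clone 5) and 0.582 (clone 6), against -0.395 to 0.179 between origins.
Alternatives were the fit without the block, DESeq2 1.42.0 with origin, its size factors, an effective-length offset, a minimum of 1 count in any library or of 10 counts in every library, and omission of each origin in turn. Summed TPM served for levels between genes.
Named genes are the members, FEZF1 and the 5 genes most correlated with MYH14. In each of the 7 lists they are the called genes (at most the 6 smallest p-values) and the most abundant one. ACTA2, DAPK3, PPP1CB, PPP1R12A, MYLK-AS1 and ROCK1P1 were added after their values were seen. The genes of 1 of the 7 lists are not reported here by name. Members and lists were chosen with earlier results of these data known. Python 3.11.15, pandas 2.3.3, numpy 2.4.6 and scipy 1.17.1 were used.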

Additional observations from a re-analysis of the deposited data

Results flagged for a closer look

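TAGLN, the actin-binding protein transgelin, was at 124 CPM in the clone 3 control against 16.3 to 32.3 CPM in the other 3 controls, a gap that is 0.851 of the whole range. This value stood apart from its group by Dixon's criterion for 4 values. Of 46 groups of 4 libraries looked at, this was the 1 with such a value, and chance alone would give about 2.3. The doxycycline cultures also spread widely, at 39.5 ± 35.2 CPM (SD, n = 4). TAGLN was called between origins (adjusted p = 1.7e-05, edgeR).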

How the results depend on the processing

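The fitted log2 fold changes of the members kept their sign in 95 of 100 values under the alternatives, the other 5 being values of MYH10, which lay between -0.05 and 0.08. They ran from 2.24 to 2.75 for MYH14 and from 1.31 to 2.19 for MYLK when an origin was left out or another setting used. The counts of calls were less stable. Without the replicate block, that is with the cultures unpaired, 1 gene was called with doxycycline in place of 1221 (1155 at an unadjusted p under 0.05), 0 members in place of 2 and 0 regulators and partners in place of 12. DESeq2 called 1920 genes and 21 regulators and partners, and 3 members, with ROCK1 added. Leaving out 1 origin gave 175 (without clone 5) to 699 genes (without the polyclonal population), 1 (without clone 5) to 6 regulators and partners, and 1 to 2 members. Between origins, leaving out 1 gave 2970 (without clone 6) to 5300 genes in place of 6300, and 4 to 5 members in place of 7. The calls split into 596 higher and 625 lower, and into 499 and 662 with the size factors of DESeq2. Of 120 alternative values of the 12 called regulators and partners, 74 kept their call and 46 lost it, with 0 reversed. The mean change of the log2 ratio of MYH14 to MYH9 ran from 2.43 to 2.86 and to MYH10 from 2.37 to 2.75. Depth limits MYH14 in the controls, where 1 library had 10.0 reads. Settings were chosen with earlier results known, and the causes of these shifts were not tested.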
